A study of Mus musculus with 4 samples.

Results

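The cells described here are fibroblast-type cells of mouse omental tumors that were selected on UMIs (unique molecular identifiers, which mark single captured RNA molecules) of Cthrc1, Postn and Col8a1. They numbered 81 of 8332 filtered cells in 3 tumor libraries, and of 11253 filtered cells in all 4 libraries of the series, with 24 in KPCA.A, 27 in KPCA.B and 30 in KPCA.C. Barcodes with fewer than 300 genes or fewer than 500 UMIs, or with more than 15% of UMIs from mitochondrial genes, were left out. A fibroblast gate of 338 cells then asked for at least 20 UMIs of Col1a1, Col1a2, Col3a1 and Dcn together and at least 1 UMI of Pdgfra and Lum together. It allowed at most 1 UMI of the leukocyte gene Ptprc, at most 1 UMI of Cdkn2a, and no UMI of the endothelial gene Pecam1. Within the gate, a selected cell carried at least 3 UMIs of Cthrc1, Postn and Col8a1 together (the 3-gene sum below), and no fewer than its UMIs of Pi16, Dpp4 and Clec3b. The levels of all these genes chose the cells, and are given as a description. Gate cells with at least 3 UMIs of Pi16, Dpp4 and Clec3b, and more of these than of the 3-gene sum, are called progenitor-type cells (19 in KPCA.A, 22 in KPCA.B and 22 in KPCA.C), and the remaining 120, 25 and 49 cells in KPCA.A, KPCA.B and KPCA.C are called other gate cells.

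The libraries were droplet single-cell RNA libraries, read from the 3′ end of transcripts, of omental tumors in C57BL6J mice 8 weeks old, grown from 3 syngeneic lines of cancer cells with the names KPCA.A, KPCA.B and KPCA.C. Tissue was digested with collagenase type I and DNase I, and 4 tumors were pooled into 1 library per line. A further library held KPCA ascites from C57BL6J mice 9 weeks old, for which the labels name no line. It held 2 gate cells and 0 selected cells of 2921, which allows a share of up to about 0.103% (3 cells of 2921). The labels used here do not spell out the alleles behind the KPCA name, and they give fallopian tube epithelial cells as the cell type of every library. With 1 library per line, the line, the pooled mice and the library cannot be told apart and no test between lines was possible. Apart from the approximate ascites bound, all intervals are exact 95% intervals and cover counting error only.

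Fibroblasts make and cross-link the collagen matrix of a tissue, and in wounds, fibrosis and tumors a matrix-rich, often contractile state is known. Cthrc1 encodes a secreted collagen-repeat protein, Postn encodes periostin, a matricellular protein that binds collagens and integrins, and Col8a1 encodes a chain of the network collagen VIII. Pi16, Dpp4 and Clec3b mark fibroblasts of vessel sheaths and serosal tissue that are described as progenitor-type. The omentum is covered by mesothelial cells, for which Upk3b and Lrrn4 are known markers.

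The start regions of Postn and Col8a1, which chose the cells, and of Acta2, the smooth muscle actin gene of contractile fibroblasts, are shown because Acta2 was highest in the cells with most UMIs of the selecting genes (values below). The sequences are from RefSeq on GRCm38.p6, 250 bases before to 50 bases after a start, read along the gene's strand; the table held 2 windows for Postn and 1 each for Col8a1 and Acta2. They lie at chr3:54360857-54361156 on the plus strand for Postn, at chr16:57754688-57754987 on the minus strand for Col8a1 and at chr19:34255324-34255623 on the minus strand for Acta2. Both strands were searched for CAGAC (bound by SMAD factors of the TGF-beta pathway), GGAATG (bound by TEAD factors), TGANTCA (bound by AP-1) and TATAAA (the TATA box), and capitals mark the matches.
Postn: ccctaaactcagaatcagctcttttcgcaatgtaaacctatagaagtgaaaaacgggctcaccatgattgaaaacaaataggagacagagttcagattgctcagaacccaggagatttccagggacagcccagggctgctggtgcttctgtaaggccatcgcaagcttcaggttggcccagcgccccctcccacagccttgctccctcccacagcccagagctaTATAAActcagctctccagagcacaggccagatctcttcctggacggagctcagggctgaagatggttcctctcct
Col8a1: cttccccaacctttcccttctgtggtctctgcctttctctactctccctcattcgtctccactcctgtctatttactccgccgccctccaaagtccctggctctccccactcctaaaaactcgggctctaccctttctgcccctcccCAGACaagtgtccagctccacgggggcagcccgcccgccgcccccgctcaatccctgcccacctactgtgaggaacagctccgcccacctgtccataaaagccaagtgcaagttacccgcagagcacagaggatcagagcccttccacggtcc
Acta2: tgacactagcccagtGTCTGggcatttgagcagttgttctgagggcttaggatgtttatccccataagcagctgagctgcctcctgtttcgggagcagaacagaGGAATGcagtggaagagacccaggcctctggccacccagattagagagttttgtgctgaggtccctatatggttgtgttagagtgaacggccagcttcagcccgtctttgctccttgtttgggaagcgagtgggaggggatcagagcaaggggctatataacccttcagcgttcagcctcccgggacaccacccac
The Postn window shown held TATAAA at position -26 from the start, and the other Postn window, at chr3:54359017-54359316, held CAGAC at position -191. CAGAC stood at position -103 in the Col8a1 window. In the Acta2 window it stood at position -235, as GTCTG on the strand shown, with GGAATG at position -146. Of the 32851 windows in the table, 49.6% held CAGAC, 14.7% GGAATG, 7.81% TGANTCA and 13.6% TATAAA, so CAGAC in particular is common, and TGANTCA was in none of these 4 windows. A match describes letters and shows no binding.

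Depth set part of what could be seen. Total UMIs were 58591493 in KPCA.A, 40054369 in KPCA.B and 95130645 in KPCA.C, and 53.1% of the KPCA.A barcodes, 22.45% of those of KPCA.B and 24.3% of those of KPCA.C exceeded the mitochondrial limit. The selected cells had median depths of 24860 UMIs in KPCA.A, 26269 in KPCA.B and 38370 in KPCA.C, and their summed depths were 658078, 753038 and 1223331 UMIs in KPCA.A, KPCA.B and KPCA.C. Progenitor-type cells were shallower in KPCA.A and KPCA.B, at medians of 5844 and 8370 UMIs, and deeper in KPCA.C, at 46082 UMIs, and values after thinning to 1 depth are given below. Of all barcodes, 38 occurred in 2 or more of the 4 libraries, and 0 of the 81 selected cells had such a barcode.

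Selected cells were 14.7% of the gate in KPCA.A (24 of 163, 9.67% to 21.1%), 36.5% in KPCA.B (27 of 74, 25.6% to 48.5%) and 29.7% in KPCA.C (30 of 101, 21.0% to 39.6%). The counting intervals of KPCA.A and KPCA.B did not overlap, while that of KPCA.C overlapped most of the KPCA.B interval and, just at its lower end, that of KPCA.A. This order did not hold after every cell was thinned to 3000 UMIs, with shallower cells left out. The share was then 10.2% in KPCA.A (11 cells), 9.09% in KPCA.B (5 cells) and 15.7% in KPCA.C (14 cells). Before thinning, gate cells had median depths of 21374, 19795 and 43667 UMIs in KPCA.A, KPCA.B and KPCA.C. The UMI limits of the rule were kept for the thinned counts. This made its lower limits stricter and its upper limits on Ptprc, Cdkn2a and Pecam1 looser. Thinning therefore cannot tell depth from a changed limit. Without thinning, selected cells were 0.906% of all filtered cells in KPCA.A (0.582% to 1.35%), 1.04% in KPCA.B (0.689% to 1.52%) and 0.968% in KPCA.C (0.654% to 1.38%), with intervals that overlapped throughout. The gate itself held 6.16% of the filtered cells in KPCA.A, 2.86% in KPCA.B and 3.26% in KPCA.C, and 120 of its 163 KPCA.A cells were neither selected nor progenitor-type. The share of the gate in KPCA.B rests mostly on cells with Postn alone: with the 24 cells that had no Cthrc1 and no Col8a1 UMI left out, a choice made after seeing the data, it was 4.05% in KPCA.B, against 12.9% in KPCA.A and 20.8% in KPCA.C.

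**Figure D1:**
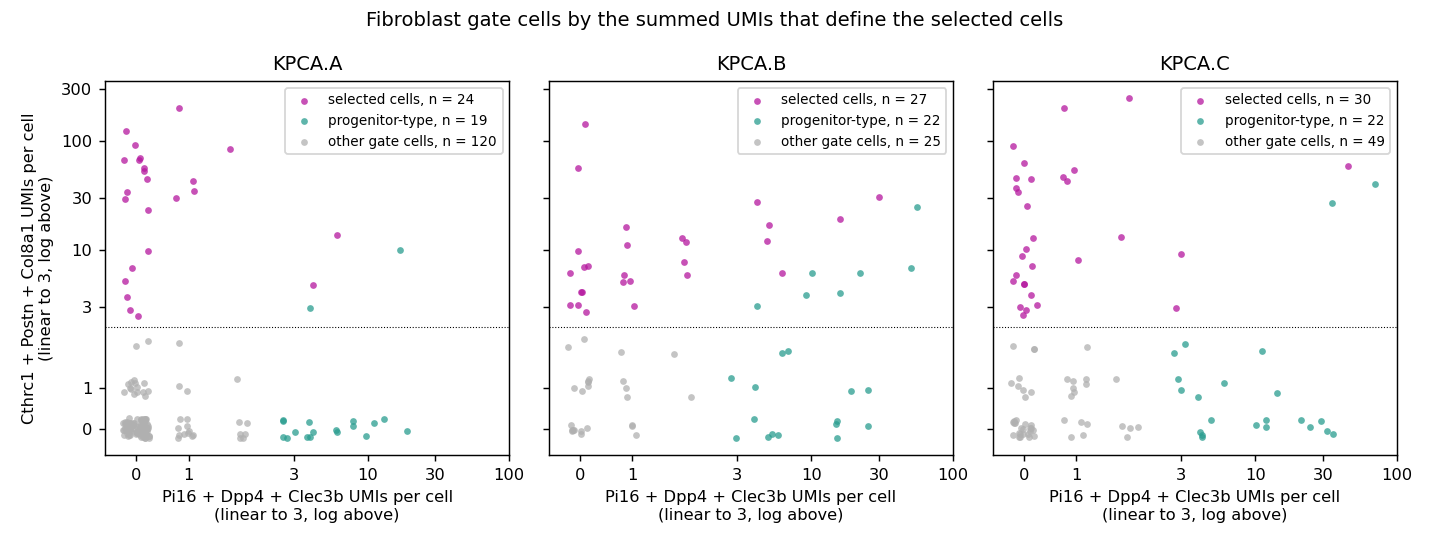
UMIs of Cthrc1, Postn and Col8a1 together (vertical axis) against UMIs of Pi16, Dpp4 and Clec3b together (horizontal axis) in each fibroblast gate cell in KPCA.A, KPCA.B and KPCA.C, on axes that are linear to 3 and logarithmic above, with small random shifts so that points do not hide each other. The dotted line runs just under the limit of 3 UMIs; selected cells reach sums of 200 in KPCA.A, 143 in KPCA.B and 247 in KPCA.C, and most KPCA.A gate cells lie at or near 0 on both axes.

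The 3 selecting genes did not contribute alike in the 3 tumors. Levels are in CPM, the UMIs of a gene summed over the selected cells of a library, divided by all their UMIs and multiplied by 1000000. Cthrc1 stood at 237 CPM in KPCA.A (201 to 277), 6.64 in KPCA.B (2.16 to 15.5) and 94.8 in KPCA.C (78.35 to 114). Col8a1 stood at 594 CPM in KPCA.A (537 to 656), 13.3 in KPCA.B (6.37 to 24.4) and 98.1 in KPCA.C (81.3 to 117). Postn stood at 845 CPM in KPCA.A (776 to 918), 569.7 in KPCA.B (517 to 626) and 706 in KPCA.C (660.0 to 755). KPCA.A was thus highest for all 3 genes, and KPCA.B was far below both other tumors for Cthrc1 and Col8a1 but near them for Postn. Single cells weigh on these sums: 1 cell gave 52.5% of the Col8a1 UMIs in KPCA.C, and 32.01%, 32.9% and 25.8% of the Postn UMIs in KPCA.A, KPCA.B and KPCA.C. In the progenitor-type cells Postn stood at 43.1 CPM in KPCA.A, 185 in KPCA.B and 84.3 in KPCA.C, and Cthrc1 at 0 CPM in KPCA.A, 3.04 in KPCA.B and 7.02 in KPCA.C.

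Counted by cell, a Cthrc1 UMI was present in 19 of 24 selected cells in KPCA.A, 2 of 27 in KPCA.B and 18 of 30 in KPCA.C. Col8a1 was present in 15 of 24 cells in KPCA.A, 2 of 27 in KPCA.B and 9 of 30 in KPCA.C, and Postn in 20, 27 and 27 cells in KPCA.A, KPCA.B and KPCA.C. All 3 genes were present together in 10, 1 and 6 cells in KPCA.A, KPCA.B and KPCA.C, whereas Postn was the only one in 3, 24 and 9 cells, 36 of 81 in all. Thinned to 3000 UMIs, Cthrc1 remained in 8 of 24 cells in KPCA.A, 0 of 26 in KPCA.B, which allows up to 13.2%, and 6 of 30 in KPCA.C. Thinned Postn remained in 11 of 24, 14 of 26 and 17 of 30 cells in KPCA.A, KPCA.B and KPCA.C. As a measure of free RNA, macrophage gate cells, which should lack these genes, had a Cthrc1 UMI in 2 of 536 cells in KPCA.A, 0 of 513 in KPCA.B and 6 of 786 in KPCA.C, at median depths of 8088, 14921 and 13860 UMIs. A Postn UMI was present in 7, 6 and 24 of these macrophage gate cells in KPCA.A, KPCA.B and KPCA.C. The macrophage gate also asked for fewer than 20 UMIs of Col1a1, Col1a2, Col3a1 and Dcn together. Droplets with much fibroblast RNA were thus left out, so these counts can understate free RNA. In the tumor epithelial gate Cthrc1 stood at 6.76, 1.67 and 18.9 CPM and Postn at 1.83, 2.06 and 21.9 CPM in KPCA.A, KPCA.B and KPCA.C. Col8a1 stood there at 15.4, 27.8 and 29.4 CPM. In KPCA.B this was above its 13.3 CPM in the selected cells, which rests on 10 UMIs, 80% of them in 1 cell. The label of activated fibroblasts marked by these genes cannot be supported by counts of the genes that chose the cells, and these counts describe the selection: 21 of 24 cells in KPCA.A and 21 of 30 in KPCA.C had Cthrc1 or Col8a1. In KPCA.B just 3 of 27 cells had either gene, which goes against the label there, and these cells are called by their rule.

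**Figure D2:**
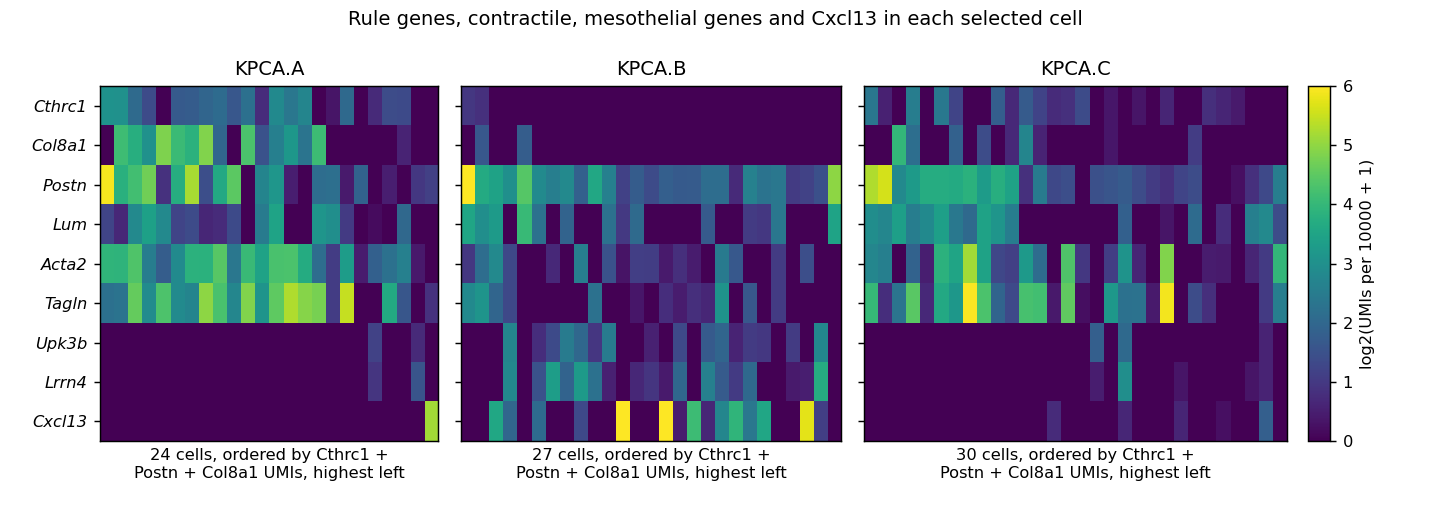
Level of 9 genes (rows) in each selected cell (columns, ordered from the highest 3-gene sum at the left) in KPCA.A, KPCA.B and KPCA.C, as log2 of UMIs per 10000 UMIs of the cell plus 1, with values above 6 drawn as 6. Acta2 and Tagln are seen in most KPCA.A cells and in part of the KPCA.C cells, and Upk3b, Lrrn4 and Cxcl13 mainly in KPCA.B, in cells without Cthrc1 and Col8a1.

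The 3-gene sum varied widely among the cells: its median was 34.5 UMIs in KPCA.A, 7 in KPCA.B and 11.5 in KPCA.C, and its highest value 200, 143 and 247 UMIs in KPCA.A, KPCA.B and KPCA.C. The 3 highest cells held 37.7% of its UMIs in KPCA.A, 51.8% in KPCA.B and 48.9% in KPCA.C. At 25 or more UMIs there were 15 cells in KPCA.A, 4 in KPCA.B and 13 in KPCA.C. In these cells Col1a1 stood at 11726 CPM in KPCA.A, 6048 in KPCA.B and 9830 in KPCA.C, and in cells with 3 to 9 UMIs at 2704 CPM in KPCA.A, 1478 in KPCA.B and 4103 in KPCA.C. Acta2 stood at 1253 CPM in KPCA.A, 306 in KPCA.B and 708 in KPCA.C at 25 or more UMIs, and at 202 CPM in KPCA.A, 115 in KPCA.B and 289.9 in KPCA.C at 3 to 9 UMIs. In the middle band of 10 to 24 UMIs, with 3 cells in KPCA.A, 8 in KPCA.B and 3 in KPCA.C, Col1a1 stood at 5924, 1706 and 2807 CPM and Acta2 at 440, 124 and 611 CPM in KPCA.A, KPCA.B and KPCA.C. Both genes were thus higher in the top band than in the bottom band of each tumor, but Col1a1 in KPCA.C was lowest in the middle band. Dcn (decorin, a small collagen-binding proteoglycan) was lower at 25 or more than at 3 to 9 UMIs in KPCA.A, at 1354 against 1996 CPM, and in KPCA.C, at 1506 against 3475 CPM, but not in KPCA.B, at 4035 against 3692 CPM. Wt1, a mesothelial and mesenchymal transcription factor gene, stood at 114, 161 and 129 CPM at 25 or more UMIs, against 275, 282 and 212 CPM at 3 to 9 UMIs, in KPCA.A, KPCA.B and KPCA.C.

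At the limit itself, the cells with exactly 3 UMIs numbered 2 in KPCA.A, 4 in KPCA.B and 5 in KPCA.C, and had Col1a1 at 1620, 1429 and 2673 CPM in KPCA.A, KPCA.B and KPCA.C. Cells with 2 UMIs, just outside, numbered 3, 4 and 4 and had 1370, 2647 and 1961 CPM in KPCA.A, KPCA.B and KPCA.C. Col1a1 was thus higher just inside the limit than just outside it in KPCA.A and KPCA.C and lower in KPCA.B, on few cells each. A further 2, 7 and 2 cells in KPCA.A, KPCA.B and KPCA.C had at least 3 UMIs of the selecting genes but more of Pi16, Dpp4 and Clec3b, and counted as progenitor-type.

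Mesothelial genes were highest in KPCA.B, in the selected cells and in the other kinds of gate cells. Upk3b (uroplakin 3b) stood at 18.2 CPM in KPCA.A, 131.5 in KPCA.B and 20.4 in KPCA.C in the selected cells. Lrrn4, a leucine-rich repeat membrane protein gene, stood at 19.75 CPM in KPCA.A, 228 in KPCA.B and 23.7 in KPCA.C. At least 1 UMI of either gene was present in 2 of 24 cells in KPCA.A, 19 of 27 in KPCA.B and 5 of 30 in KPCA.C, and all 19 KPCA.B cells were among the 24 with Postn alone. The list of 8 mesothelial markers was at a summed level of 228 CPM in KPCA.A, 635 in KPCA.B and 91.6 in KPCA.C, with 7, 7 and 6 of its genes seen, against 3762, 2419 and 3718 CPM in the 10, 8 and 3 cells of the mesothelial gate in KPCA.A, KPCA.B and KPCA.C. That gate was chosen outside the fibroblast gate on Msln, Upk3b and Lrrn4, which are in the list, so its higher level was partly fixed by that choice. The mesothelial list summed to 746, 962 and 661.5 CPM in progenitor-type cells and to 314, 760.0 and 308 CPM in other gate cells in KPCA.A, KPCA.B and KPCA.C, so both other kinds were above the selected cells in each tumor. Split by Cthrc1 and Col8a1, a choice made after seeing the data, the 3 KPCA.B cells with either gene had Col1a1 at 8962 CPM (8262 to 9706) and no UMI of Upk3b, Lrrn4 or Cxcl13, against 1695 CPM (1599 to 1795) in the other 24 KPCA.B cells. In KPCA.A the 21 cells with either gene had Col1a1 at 9188 CPM, against 1677 CPM in 3 cells with neither, and in KPCA.C the 21 cells with either gene had 7013 CPM, against 4365 CPM in 9 cells with neither. These values describe the split, since the gate used Col1a1, and in KPCA.B 1 of the 3 cells held 333 of their 605 Col1a1 UMIs (55.0%). Over all selected cells Col1a1 stood at 8256 CPM in KPCA.A (8038 to 8478), 2346 in KPCA.B (2238 to 2459) and 6304 in KPCA.C (6164 to 6446). The part of mesothelial markers in the differences between tumors below was not tested, since 3 such KPCA.B cells were too few for ratios.

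Against progenitor-type cells, the comparison describes the rule as much as the cells, since the rule separates them. Ratios were taken in KPCA.B and KPCA.C, where both kinds had at least 20 cells; KPCA.A, with 19 progenitor-type cells, is given as levels. Of 3417 measured genes (at least 50 UMIs over the pair and 20 CPM in the higher kind, in both libraries), 24 (0.702%) were more than 2-fold higher in the selected cells in both libraries and 38 (1.11%) more than 2-fold lower, after 5 CPM was added to each level. These are counts of values and of no test. Markers of other cells moved with the comparison. The mesothelial list was lower in the selected cells, at 228, 635 and 91.6 CPM, than in progenitor-type cells, at 746, 962 and 661.5 CPM, in KPCA.A, KPCA.B and KPCA.C. Upk3b or Lrrn4 was present in 2 of 24, 19 of 27 and 5 of 30 selected cells, against 5 of 19, 7 of 22 and 11 of 22 progenitor-type cells, in KPCA.A, KPCA.B and KPCA.C. Those 5 KPCA.A cells were deep, with 73949, 42106, 34500, 23404 and 18015 of the 301642 UMIs of all 19. The tumor epithelial list was lower too, at 362, 337 and 91.6 CPM in the selected cells, against 1386, 586 and 409 CPM in progenitor-type cells, in KPCA.A, KPCA.B and KPCA.C. This list shares Krt19 with the mesothelial list. Cdkn2a, Cldn4, Cldn6 and Pax8 were at 0 UMIs in KPCA.A and KPCA.B progenitor-type cells, as was Epcam in KPCA.B. A Cdkn2a UMI was present in 8 selected cells in KPCA.A, 7 in KPCA.B and 10 in KPCA.C. In KPCA.C progenitor-type cells just Cldn4 and Cldn6 were at 0. The 5 KPCA.A progenitor-type cells with Upk3b or Lrrn4 held 121, 86, 22, 9 and 5 UMIs of Krt8 and Krt18. None of the other KPCA.A progenitor-type cells held more than 2. The part of these markers in the ratios below was not tested.

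The genes with the largest ratios in both libraries, 12 in each direction, included matrix and contractile genes on the higher side. Tagln (transgelin, an actin-binding protein of contractile cells) stood at 1204 CPM in KPCA.A, 111.5 in KPCA.B and 903 in KPCA.C in the selected cells, against 69.6 CPM in KPCA.A, 18.2 in KPCA.B and 43.3 in KPCA.C in progenitor-type cells. Tnc (tenascin C, a matricellular protein) stood at 869 CPM in KPCA.A, 91.6 in KPCA.B and 468 in KPCA.C, against 79.6 CPM in KPCA.A, 6.07 in KPCA.B and 12.9 in KPCA.C, with 94.2% of the KPCA.B UMIs in 1 cell. Col12a1, a fibril-associated collagen chain, stood at 456 CPM in KPCA.A, 50.5 in KPCA.B and 357 in KPCA.C, against 36.5 CPM in KPCA.A, 9.11 in KPCA.B and 49.2 in KPCA.C in progenitor-type cells. These genes had the same order of kinds in each of the 3 libraries. KPCA.A did not enter their choice, but the same rule separated its kinds, so it is no independent check. Runx1, a transcription factor gene, stood at 629 CPM in KPCA.A, 109 in KPCA.B and 534 in KPCA.C, against 116 CPM in KPCA.A, 27.3 in KPCA.B and 136 in KPCA.C. Ncam1, a cell adhesion gene, stood at 650.4 CPM in KPCA.A, 51.8 in KPCA.B and 558 in KPCA.C, against 146 CPM in KPCA.A, 12.1 in KPCA.B and 139 in KPCA.C. Slc7a2, a cationic amino acid transporter gene, and Itga9, an integrin chain that binds tenascin C, were likewise higher: Itga9 stood at 152 CPM in KPCA.A, 73.0 in KPCA.B and 127.5 in KPCA.C, against 19.9 CPM in KPCA.A, 18.2 in KPCA.B and 16.4 in KPCA.C. The remaining genes were Spp1, Flt1, Ctsc, Rgs16 and Mfap4.

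Some of these genes were abundant in other cells of the same libraries. Spp1 (osteopontin, a secreted matrix and cytokine protein) stood at 2323 CPM in KPCA.A, 215 in KPCA.B and 4133 in KPCA.C in the selected cells and 143 CPM in KPCA.A, 3.04 in KPCA.B and 335 in KPCA.C in progenitor-type cells. Its level was 7883, 2211 and 14726 CPM in the tumor epithelial gate in KPCA.A, KPCA.B and KPCA.C, and 92.0% of the KPCA.B UMIs came from 1 cell. Ctsc (cathepsin C, a lysosomal protease) stood at 292 CPM in KPCA.A, 130.1 in KPCA.B and 273 in KPCA.C, against 33.15 CPM in KPCA.A, 24.3 in KPCA.B and 50.3 in KPCA.C, and at 1615, 941 and 1372 CPM in the macrophage gate. Flt1 (a VEGF receptor) stood at 102 CPM in KPCA.A, 181 in KPCA.B and 114 in KPCA.C, against 19.9 CPM in KPCA.A, 9.11 in KPCA.B and 5.85 in KPCA.C in progenitor-type cells, and its KPCA.C ratio reversed when all other gate cells replaced the progenitor-type cells, at -0.31 on the log2 scale. The part of free RNA or mixed droplets in these 3 genes was not tested.

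The 12 genes lower in the selected cells included genes of secreted and surface proteins. Smoc2, a secreted calcium-binding matrix protein gene, stood at 10.6 CPM in KPCA.A, 11.95 in KPCA.B and 5.72 in KPCA.C, against 222 CPM in KPCA.A, 398 in KPCA.B and 229.5 in KPCA.C in progenitor-type cells. Abca8a, a lipid transporter gene, stood at 0 CPM in KPCA.A, 11.95 in KPCA.B and 4.09 in KPCA.C, against 156 CPM in KPCA.A, 483 in KPCA.B and 76.1 in KPCA.C. Gsn (gelsolin, which severs actin filaments) stood at 272 CPM in KPCA.A, 1110 in KPCA.B and 328 in KPCA.C, against 3643 CPM in KPCA.A, 5963 in KPCA.B and 1434 in KPCA.C. Ly6a (the surface antigen Sca-1) stood at 166 CPM in KPCA.A, 75.7 in KPCA.B and 269.8 in KPCA.C, against 629.9 CPM in KPCA.A, 583 in KPCA.B and 1198 in KPCA.C. All 4 were lower in the selected cells of each library. Ptn (pleiotrophin, a growth factor), Efemp1 (a fibulin), Vegfd (a lymphatic growth factor), Tnfrsf11b (osteoprotegerin, a decoy receptor), Cdkn1c (a cell-cycle inhibitor), Ggt5, Ly6c1 and AW112010 completed the 12, with log2 ratios in KPCA.B and KPCA.C between -3.78 and -2.14. Complement genes, which fibroblasts are known to express, were lower in the selected cells for all 8 measured genes in both libraries, with median log2 ratios of -0.46 in KPCA.B and -0.96 in KPCA.C, against -0.0023 in KPCA.B and -0.05 in KPCA.C over all measured genes, but just 1 of them was more than 2-fold lower in both libraries. C3, the central complement component, stood at 1766 CPM in KPCA.A, 6318 in KPCA.B and 2547 in KPCA.C, against 5304 CPM in KPCA.A, 8610 in KPCA.B and 7680 in KPCA.C.

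**Figure D3:**
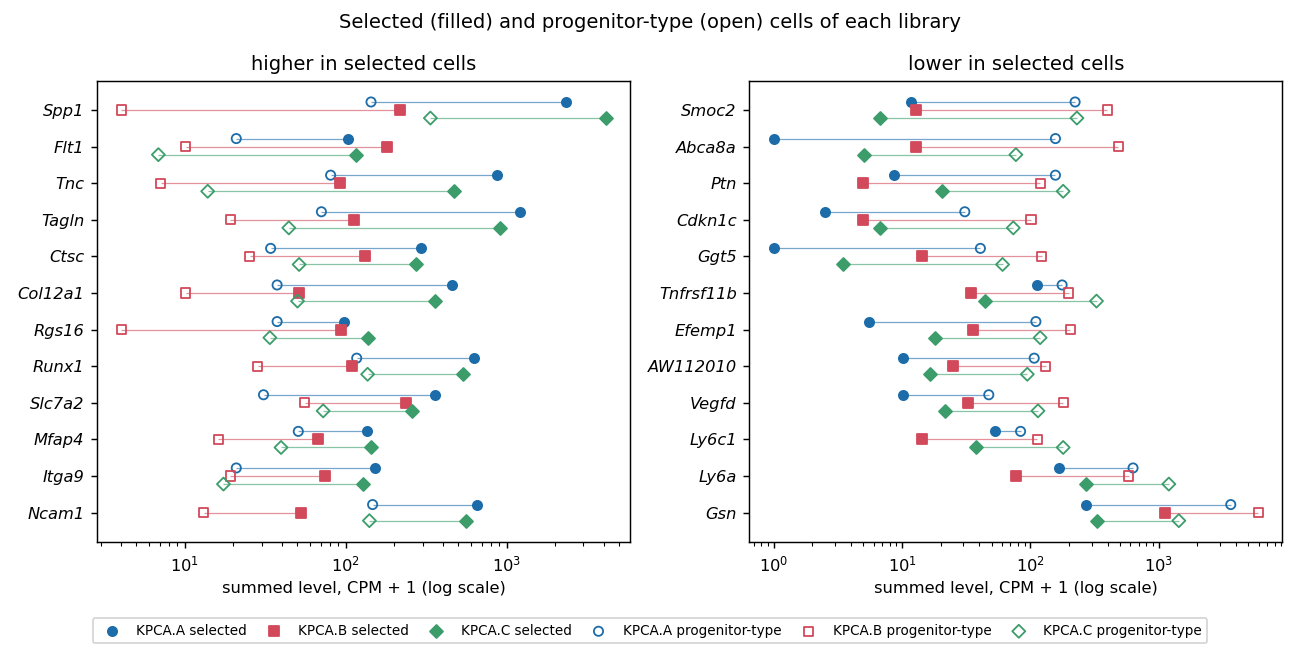
Summed level (CPM plus 1, log axis) of the 12 genes higher (left) and the 12 genes lower (right) in selected cells (filled) than in progenitor-type cells (open) in KPCA.A, KPCA.B and KPCA.C; a line joins both kinds of a library. The genes were chosen on KPCA.B and KPCA.C. For each gene drawn the KPCA.A values lie in the same order, but the same rule separated the kinds there.

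Of the lists set against progenitor-type cells, the matricellular and elastic matrix genes had the most values past 2-fold in both libraries, 5 higher and 1 lower, with median log2 ratios of 0.36 in KPCA.B over 16 measured genes and 0.82 in KPCA.C over 20. Contractile genes had 2 past 2-fold higher in both libraries and 0 lower, with medians of 0.39 in KPCA.B and 0.75 in KPCA.C. Collagen chains outside the rule did not go one way, with medians of -0.39 in KPCA.B and 0.33 in KPCA.C. MHC class I and II genes had medians of -0.30 in KPCA.B and -0.96 in KPCA.C, with 0 of 9 genes past 2-fold in both libraries. A list of 23 progenitor-type fibroblast genes outside the rule had medians of -0.61 in KPCA.B and -0.93 in KPCA.C. Of its 13 genes measured in both libraries, 1 was past 2-fold higher and 2 lower in both. Its summed level was higher in selected cells, at 7485, 7502 and 8130 CPM, than in progenitor-type cells, at 4983, 7007 and 5907 CPM, in KPCA.A, KPCA.B and KPCA.C. Fn1 (fibronectin) stood at 4933 CPM in KPCA.A, 4421 in KPCA.B and 5716 in KPCA.C in the selected cells, against 1565 CPM in KPCA.A, 1825 in KPCA.B and 1975 in KPCA.C in progenitor-type cells, but at 3589, 4076 and 4793 CPM in the macrophage gate in KPCA.A, KPCA.B and KPCA.C.

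Between tumors, the selected cells of KPCA.B differed most in counts of genes past 2-fold. KPCA.A over KPCA.B had 367 of 4306 measured genes (8.52%) more than 2-fold higher and 237 (5.50%) more than 2-fold lower. KPCA.B over KPCA.C had 243 of 5411 genes (4.49%) higher and 423 (7.82%) lower. KPCA.A over KPCA.C had 99 of 5221 genes (1.90%) higher and 119 (2.28%) lower. With median-of-ratios scaling in place of CPM, the KPCA.A over KPCA.C split moved to 80 higher and 160 lower, 33.3% higher of those past 2-fold against 45.4%. The median log2 ratio of all measured genes was 0.03 for KPCA.A over KPCA.B, 0.04 for KPCA.A over KPCA.C and -0.01 for KPCA.B over KPCA.C. The 3 comparisons share libraries, so a gene low in KPCA.B appears in 2 of them, and list counts below are to be read beside these shares.

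Lists of matrix genes outside the rule had higher medians in KPCA.A and in KPCA.C than in KPCA.B. Of 14 measured collagen chains, 7 were more than 2-fold higher and 1 lower in KPCA.A over KPCA.B (median log2 ratio 1.08). In KPCA.B over KPCA.C 2 were higher and 8 lower (median -1.13), and just 1 passed in KPCA.A over KPCA.C (median 0.36). Summed over this list, cells with a 3-gene sum of 25 or more had 13300, 11621 and 12113 CPM in KPCA.A, KPCA.B and KPCA.C. Cells with 3 to 9 UMIs had 5984, 4046 and 6159 CPM, and were 6 of 24, 15 of 27 and 14 of 30 cells. Progenitor-type cells had 5377, 8216 and 5485 CPM, highest in KPCA.B. At 25 or more UMIs, with 4 cells in KPCA.B, other lists did not all come as close between tumors. The contractile list had 9765, 5206 and 7537 CPM and the hypoxia and glycolysis list 8681, 1998 and 7667 CPM in KPCA.A, KPCA.B and KPCA.C. Growth and angiogenic factors had 4892, 6086 and 8314 CPM there, with KPCA.B not lowest. The part of the 3-gene sum in the differences between tumors was not tested. Col5a1, a chain that sets the diameter of collagen I fibrils, stood at 1561 CPM in KPCA.A (1467 to 1659), 336 in KPCA.B (296 to 380.0) and 914.7 in KPCA.C (862 to 969.9), 4.645-fold (4.04 to 5.35) for KPCA.A over KPCA.B. Col6a3, a microfibrillar collagen chain, stood at 1128 CPM in KPCA.A, 281.5 in KPCA.B and 674 in KPCA.C, whereas its partner chain Col6a1 stood at 1213 CPM in KPCA.A, 1277 in KPCA.B and 1183 in KPCA.C. Chains of the same collagen VI molecule therefore did not differ alike between the tumors.

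Genes that process and cross-link collagen numbered 20, of which 7 were more than 2-fold higher and 0 lower in KPCA.A over KPCA.B (median 0.85). KPCA.B over KPCA.C had 0 higher and 4 lower (median -0.52). Lox (lysyl oxidase, which starts collagen cross-links) stood at 1643 CPM in KPCA.A (1546 to 1744), 204.5 in KPCA.B (173.5 to 239.5) and 1210 in KPCA.C (1149 to 1273), 8.03-fold (6.78 to 9.57) for KPCA.A over KPCA.B and 1.36-fold (1.25 to 1.47) for KPCA.A over KPCA.C. Plod2, a collagen lysyl hydroxylase gene, stood at 678 CPM in KPCA.A, 207 in KPCA.B and 669 in KPCA.C. The chaperone gene Serpinh1, needed for collagen folding, differed less, at 2494 CPM in KPCA.A, 1672 in KPCA.B and 1923 in KPCA.C. Col1a1 itself, which the gate used, was 3.52-fold (3.33 to 3.71) for KPCA.A over KPCA.B and 1.31-fold (1.265 to 1.36) for KPCA.A over KPCA.C.

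Matricellular and elastic matrix genes showed the same order, with 12 of 19 more than 2-fold higher and 2 lower in KPCA.A over KPCA.B (median 1.29). Of 20 genes, 0 were higher and 13 lower in KPCA.B over KPCA.C (median -1.10). Bgn (biglycan, a collagen-binding proteoglycan) stood at 3500 CPM in KPCA.A (3358 to 3645), 1432 in KPCA.B (1347 to 1520) and 3165 in KPCA.C (3066 to 3266). Mfap5, a microfibril protein gene, stood at 1086 CPM in KPCA.A, 109 in KPCA.B and 755 in KPCA.C. Ccn1 and Ccn2, secreted proteins known as targets of the YAP and TEAD factors, were highest in KPCA.A: Ccn2 stood at 228 CPM in KPCA.A, 34.5 in KPCA.B and 14.7 in KPCA.C and Ccn1 at 231 CPM in KPCA.A, 15.9 in KPCA.B and 106 in KPCA.C. In KPCA.B 88.5% of the Ccn2 UMIs came from 1 cell. Sparc, an abundant collagen-binding glycoprotein gene, differed less, at 10237 CPM in KPCA.A, 7826 in KPCA.B and 10052 in KPCA.C.

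**Figure D4:**
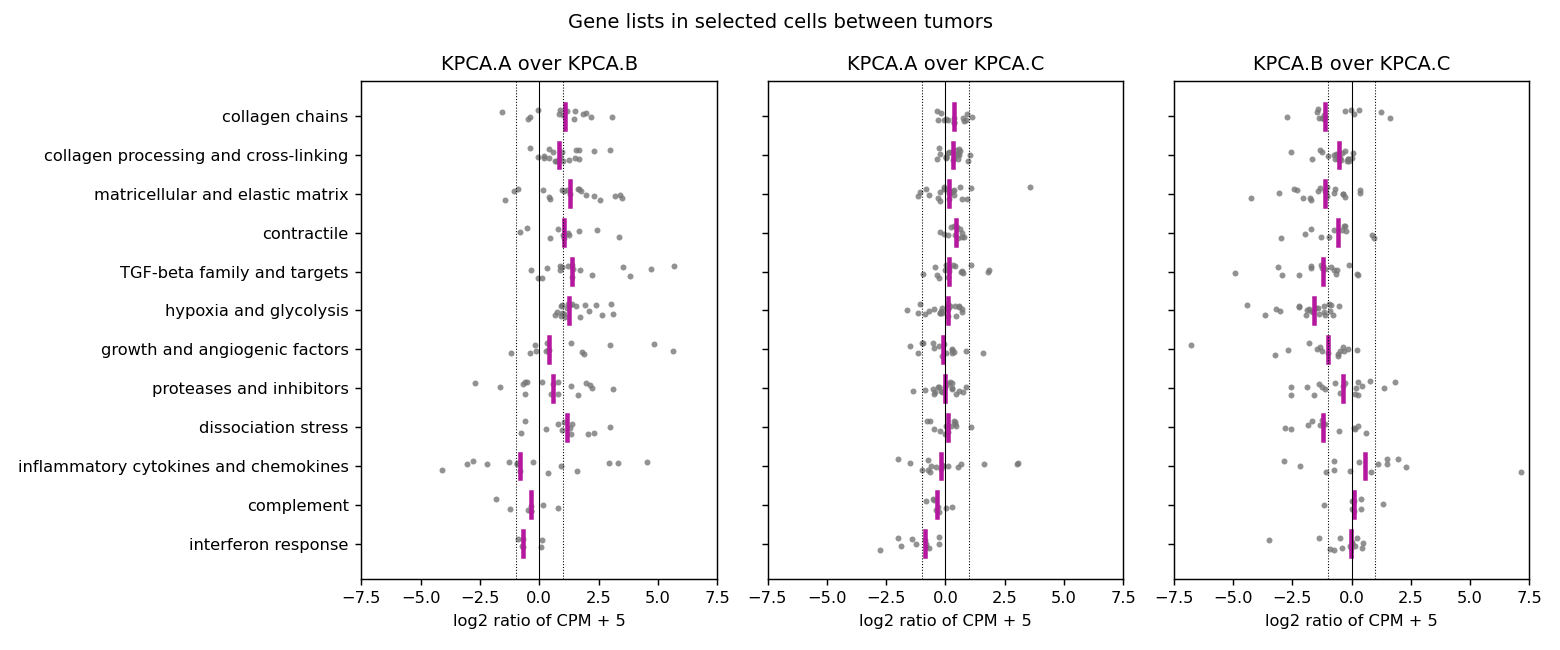
Log2 ratios (horizontal axis, 5 CPM added) of the measured genes of 12 lists in selected cells, for KPCA.A over KPCA.B, KPCA.A over KPCA.C and KPCA.B over KPCA.C; grey points are genes, magenta bars are list medians and dotted lines mark 2-fold. Medians of the matrix, contractile, TGF-beta, hypoxia and dissociation stress lists lie right of 0 for KPCA.A over KPCA.B and left of 0 for KPCA.B over KPCA.C, and for the same lists the medians for KPCA.A over KPCA.C lie between 0.09 and 0.45.

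Contractile genes numbered 11 measured for KPCA.A over KPCA.B, with 6 more than 2-fold higher and 0 lower (median 1.03). KPCA.B over KPCA.C had 12 measured, with 0 higher and 4 lower (median -0.56). Acta2 stood at 833 CPM in KPCA.A (764.5 to 905.5), 151 in KPCA.B (125 to 182) and 510.1 in KPCA.C (471 to 552), 5.50-fold (4.49 to 6.79) for KPCA.A over KPCA.B. Tagln was 10.8-fold (8.61 to 13.7) for KPCA.A over KPCA.B and 1.33-fold (1.215 to 1.46) for KPCA.A over KPCA.C. By cell, at least 20 UMIs of Acta2 and Tagln together were present in 18 of 24 cells in KPCA.A, 4 of 27 in KPCA.B and 13 of 30 in KPCA.C. Of 8 pericyte and smooth muscle markers, 6 were seen in the selected cells of each tumor, and Rgs5 and Higd1b were at 0 UMIs. The list summed to 156.5 CPM in KPCA.A, 54.5 in KPCA.B and 104 in KPCA.C. It summed to 79.6, 54.65 and 30.4 CPM in progenitor-type cells in KPCA.A, KPCA.B and KPCA.C. In other gate cells it summed to 19.6, 19.2 and 27.4 CPM. Cald1 (caldesmon, which binds actin and myosin in many cell types) stood at 2196 CPM in KPCA.A, 1592 in KPCA.B and 1876 in KPCA.C, and Tagln2, a relative of Tagln, at 817.5 CPM in KPCA.A, 1173 in KPCA.B and 635 in KPCA.C, so genes of the list did not all follow Acta2.

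In the TGF-beta list of ligands, receptors and known targets, 10 of 17 genes were more than 2-fold higher and 0 lower in KPCA.A over KPCA.B (median 1.38). In KPCA.B over KPCA.C 0 were higher and 10 lower (median -1.19). Just 3 were higher and 0 lower in KPCA.A over KPCA.C (median 0.15). Inhba, which encodes the activin A subunit, stood at 270.5 CPM in KPCA.A (232 to 313), 14.6 in KPCA.B (7.29 to 26.1) and 166 in KPCA.C (144 to 190.4). Fst (follistatin, which binds and blocks activin) stood at 318 CPM in KPCA.A (276 to 364), 1.33 in KPCA.B (0.0336 to 7.40) and 186 in KPCA.C (162 to 211), on 1 UMI in KPCA.B, and was 239-fold (42.5 to 9491) for KPCA.A over KPCA.B. Ligand and antagonist were thus both lowest in KPCA.B. Tgfbr2, a receptor gene, stood at 360.1 CPM in KPCA.A, 135.5 in KPCA.B and 456 in KPCA.C. Pmepa1, a target that dampens the pathway, stood at 1099 CPM in KPCA.A, 466 in KPCA.B and 1068 in KPCA.C.

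Wnt ligands and modulators, of which 9 were measured, had 6 more than 2-fold higher and 1 lower in KPCA.A over KPCA.B. Sfrp1, a secreted Wnt antagonist gene, stood at 246 CPM in KPCA.A, 46.5 in KPCA.B and 516 in KPCA.C. Dkk2, a Wnt modulator gene, stood at 95.7 CPM in KPCA.A, 7.97 in KPCA.B and 19.6 in KPCA.C. The receptor gene Fzd1 stood at 193 CPM in KPCA.A, 43.8 in KPCA.B and 278 in KPCA.C. Wnt4, a ligand gene, ran the other way, at 495 CPM in KPCA.A, 918 in KPCA.B and 802 in KPCA.C. Among mesenchymal transcription factor genes just 1 of 12 passed 2-fold in KPCA.A over KPCA.B, namely Runx1, which was 5.78-fold (4.55 to 7.41). Prrx1, a factor of connective tissue lineages, stood at 301 CPM in KPCA.A, 214 in KPCA.B and 321 in KPCA.C.

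The list of proteases and inhibitors was mixed, with 6 of 17 genes more than 2-fold higher and 2 lower in KPCA.A over KPCA.B (median 0.60). Timp1, a metalloproteinase inhibitor gene, stood at 5818 CPM in KPCA.A (5636 to 6006), 663 in KPCA.B (606 to 723) and 3951 in KPCA.C (3840 to 4064), 8.78-fold (8.00 to 9.66) for KPCA.A over KPCA.B. Timp3, an inhibitor held in the matrix, stood at 4173 CPM in KPCA.A, 1052 in KPCA.B and 2518 in KPCA.C, but Timp2 stood at 526 CPM in KPCA.A, 1645 in KPCA.B and 643 in KPCA.C. Adamts5, an aggrecan-cleaving protease gene, had its highest level in KPCA.B too, at 22.8 CPM in KPCA.A, 178 in KPCA.B and 45.8 in KPCA.C. Plat (tissue plasminogen activator) stood at 679 CPM in KPCA.A, 139 in KPCA.B and 835 in KPCA.C.

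Hypoxia and glycolysis genes were low in KPCA.B, with 14 of 20 more than 2-fold higher and 0 lower in KPCA.A over KPCA.B (median 1.25). Of 22 genes, 0 were higher and 17 lower in KPCA.B over KPCA.C (median -1.57). In KPCA.A over KPCA.C the median was 0.09, and -0.01 with median-of-ratios scaling. Ndrg1, a hypoxia-induced gene, stood at 286 CPM in KPCA.A (246 to 329.6), 30.5 in KPCA.B (19.4 to 45.8) and 318 in KPCA.C (287 to 351), and Gapdh, a glycolytic enzyme gene, at 1901 CPM in KPCA.A, 811 in KPCA.B and 2152 in KPCA.C. Ndufa4l2, a mitochondrial protein gene known to be induced by hypoxia, stood at 302 CPM in KPCA.A, 5.31 in KPCA.B and 261 in KPCA.C. Adm (adrenomedullin, a vasodilator peptide) stood at 30.4 CPM in KPCA.A, 0 UMIs in KPCA.B and 102 CPM in KPCA.C. The summed level of the list was 8864 CPM in KPCA.A, 3398 in KPCA.B and 9538 in KPCA.C in the selected cells, and the other gate cells had the same order, at 10683, 4001 and 11450 CPM in KPCA.A, KPCA.B and KPCA.C.

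Growth and angiogenic factor genes had 6 of 14 more than 2-fold higher and 1 lower in KPCA.A over KPCA.B (median 0.40), and 0 higher and 7 of 15 lower in KPCA.B over KPCA.C. Vegfa, the main endothelial growth factor gene, stood at 485 CPM in KPCA.A (433 to 541), 57.1 in KPCA.B (41.3 to 76.9) and 399.7 in KPCA.C (365 to 437), with 65.1% of the KPCA.B UMIs in 1 cell. Igfbp3, an IGF-binding protein gene, stood at 436 CPM in KPCA.A (387 to 489.6), 3.98 in KPCA.B (0.822 to 11.6) and 973 in KPCA.C (918 to 1030), on 3 UMIs of 1 cell in KPCA.B. Pgf (placental growth factor) stood at 137 CPM in KPCA.A, 0 UMIs in KPCA.B and 41.7 CPM in KPCA.C, with 76.5% of the KPCA.C UMIs in 1 cell. Igfbp3 was also lowest in the KPCA.B tumor epithelial gate, at 333, 17.2 and 842 CPM in KPCA.A, KPCA.B and KPCA.C.

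Genes known to respond to tissue dissociation had the same order, with 7 of 12 more than 2-fold higher and 0 lower in KPCA.A over KPCA.B (median 1.17). Fos stood at 237 CPM in KPCA.A, 25.2 in KPCA.B and 175 in KPCA.C and Egr1 at 679 CPM in KPCA.A, 159 in KPCA.B and 521 in KPCA.C; both are immediate-early transcription factor genes. The list summed to 3297, 1700 and 3029 CPM in the selected cells in KPCA.A, KPCA.B and KPCA.C, and to 2561, 1659 and 3082 CPM in their other gate cells. Whether digestion differed between the tumors was not tested.

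Inflammatory and immune genes did not follow the matrix order. Of 15 measured cytokines, chemokines and related genes, 4 were more than 2-fold higher and 5 lower in KPCA.A over KPCA.B (median -0.82). In KPCA.B over KPCA.C, 6 of 14 were higher and 3 lower (median 0.55, and -0.75 with a minimum of 10 UMIs and no CPM minimum). Cxcl13, a B cell-attracting chemokine gene, stood at 131 CPM in KPCA.A (104.5 to 161), 2315 in KPCA.B (2207 to 2426) and 11.4 in KPCA.C (6.26 to 19.2), on 1 cell in KPCA.A, 15 in KPCA.B and 5 in KPCA.C, and 42.3% of the KPCA.B UMIs came from 1 cell. Its progenitor-type levels had KPCA.B highest too, at 49.7 CPM in KPCA.A, 1017 in KPCA.B and 30.4 in KPCA.C. Saa3 (serum amyloid A3, an acute-phase protein) stood at 425.5 CPM in KPCA.A, 2983 in KPCA.B and 1696 in KPCA.C, and at 653, 2635 and 513 CPM in the macrophage gate of the same tumors. Ptgs2 (cyclooxygenase 2, which starts prostaglandin synthesis) was highest in KPCA.A, at 143 CPM in KPCA.A, 1.33 in KPCA.B and 13.1 in KPCA.C, with 52.1% of the KPCA.A UMIs in 1 cell. Has2, a hyaluronan synthase gene, stood at 112 CPM in KPCA.A, 6.64 in KPCA.B and 32.7 in KPCA.C, and Il33, an alarmin cytokine gene, at 319 CPM in KPCA.A, 102 in KPCA.B and 481.5 in KPCA.C. Hpgd, which degrades prostaglandins, was highest in KPCA.B, at 4.56 CPM in KPCA.A (0.940 to 13.3), 174 in KPCA.B (145 to 206) and 3.27 in KPCA.C (0.891 to 8.37).

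Complement genes had 0 of 8 more than 2-fold higher and 2 lower in KPCA.A over KPCA.B, with C3 at 0.2795-fold (0.262 to 0.298). MHC genes differed little, with 1 of 9 past 2-fold in KPCA.A over KPCA.B and 0 of 10 in each of the other comparisons. B2m, the shared MHC class I chain, stood at 1202 CPM in KPCA.A, 1066 in KPCA.B and 1307 in KPCA.C. Of 11 interferon response genes, 5 were more than 2-fold lower in KPCA.A over KPCA.C (median -0.87). Among them were Iigp1, an interferon-induced GTPase gene, at 125 CPM in KPCA.A, 208.5 in KPCA.B and 297 in KPCA.C, and Ifit3, an antiviral protein gene, which had 65.0% of its KPCA.C UMIs in 1 cell. Genes of lipid handling were few, and Apoe (apolipoprotein E) stood at 65.3 CPM in KPCA.A, 922 in KPCA.B and 313 in KPCA.C, against 5049, 2911 and 3779 CPM in the macrophage gate in KPCA.A, KPCA.B and KPCA.C.

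Genes that set a single tumor apart were named where the tumor differed most from the nearer of the others. KPCA.A was highest for Cspg4, a chondroitin sulfate proteoglycan of mural and mesenchymal cells, at 69.9 CPM in KPCA.A (51.2 to 93.2), 6.64 in KPCA.B (2.16 to 15.5) and 0.817 in KPCA.C (0.0207 to 4.55). It was also highest for Aldh1a3, a retinoic acid-forming enzyme gene, at 188 CPM in KPCA.A, 17.3 in KPCA.B and 46.6 in KPCA.C, besides Ptgs2, Ccn2 and Dkk2. It was lowest for Trf (transferrin, an iron carrier), at 89.7 CPM in KPCA.A, 1793 in KPCA.B and 1384 in KPCA.C, although 70.4% of the KPCA.C UMIs came from 1 cell. Further genes lowest in KPCA.A were Ramp2, an adrenomedullin receptor partner, at 6.08 CPM in KPCA.A, 89.0 in KPCA.B and 37.6 in KPCA.C, and Stmn2, Ldhb and Saa3. KPCA.B was highest for Smpd3, a neutral sphingomyelinase gene, at 18.2 CPM in KPCA.A, 260.3 in KPCA.B and 17.98 in KPCA.C, and for Tesc, a calcium-binding protein gene, at 15.2 CPM in KPCA.A, 186 in KPCA.B and 14.7 in KPCA.C, besides Hpgd, Cxcl13 and Hist1h2ae. It was lowest for Igfbp3, Fst, Ndufa4l2, Mt2 (a metallothionein), at 676 CPM in KPCA.A, 57.1 in KPCA.B and 802 in KPCA.C, and Dio3 (a thyroid hormone-inactivating enzyme), at 132 CPM in KPCA.A, 2.66 in KPCA.B and 82.6 in KPCA.C. Both of these rest on few cells, with 62.9% of the Mt2 and 77.0% of the Dio3 UMIs of KPCA.A in 1 cell. The genes highest in KPCA.C included Nppc (C-type natriuretic peptide), at 9.12 CPM in KPCA.A, 7.97 in KPCA.B and 58.9 in KPCA.C, and Igfbp2, at 3.04 CPM in KPCA.A, 10.6 in KPCA.B and 64.6 in KPCA.C. Gm10076, also among them, stood at 237 CPM in KPCA.A, 258 in KPCA.B and 914 in KPCA.C. Its level was highest in KPCA.C in the macrophage gate too, at 243, 169.5 and 784 CPM in KPCA.A, KPCA.B and KPCA.C.

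**Figure D5:**
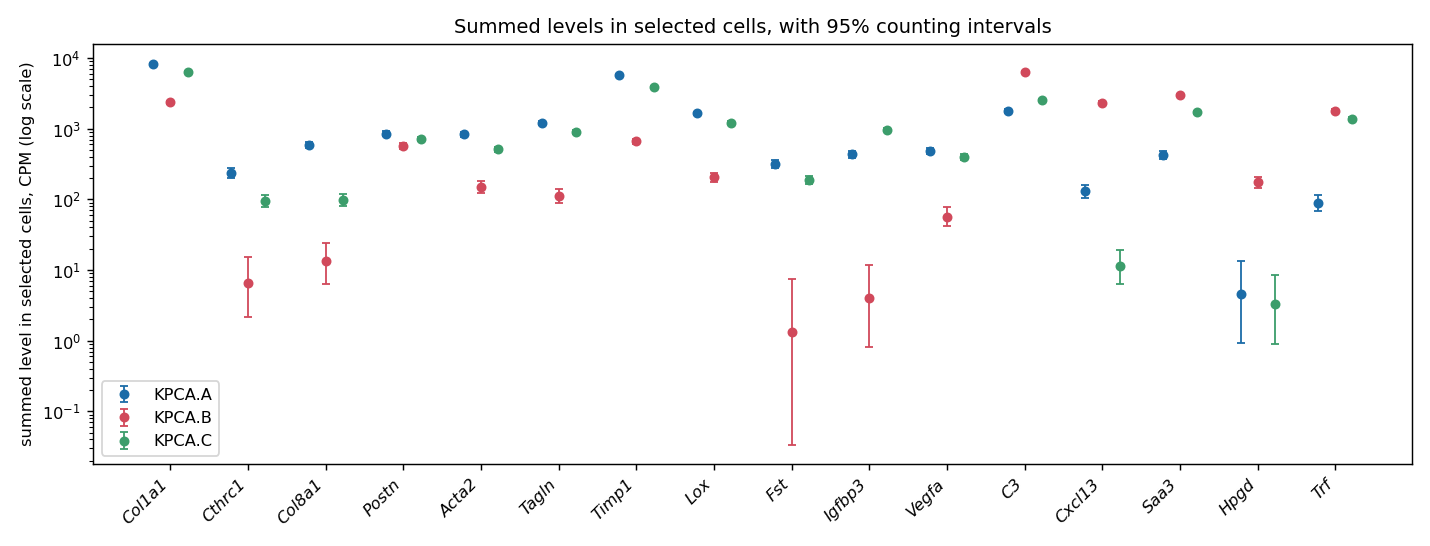
Summed levels (CPM, log axis) of 16 genes in the selected cells in KPCA.A, KPCA.B and KPCA.C, with exact 95% Poisson intervals that cover counting error only. From Col1a1 to Vegfa KPCA.B is the lowest for each gene, and C3, Cxcl13, Saa3, Hpgd and Trf are highest in KPCA.B.

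Cell cycle genes were lowest in KPCA.C, with 4 of 7 more than 2-fold higher and 0 lower in KPCA.A over KPCA.C (median 1.04). KPCA.B over KPCA.C had 8 of 9 higher and 0 lower (median 1.93). Top2a, a DNA topoisomerase of dividing cells, stood at 77.5 CPM in KPCA.A, 163 in KPCA.B and 39.2 in KPCA.C, and Ube2c, a ubiquitin-conjugating enzyme of mitosis, at 31.9 CPM in KPCA.A, 198 in KPCA.B and 18.8 in KPCA.C. At least 5 UMIs of Mki67 and Top2a together were present in 5 of 24 cells in KPCA.A, 6 of 27 in KPCA.B and 1 of 30 in KPCA.C, so these sums rest on few cells.

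Markers of other cells were low in the selected cells but not absent. The macrophage list of 10 genes summed to 50.1 CPM in KPCA.A, 131.5 in KPCA.B and 90.7 in KPCA.C, against 12400, 12801 and 10478 CPM in the macrophage gate in KPCA.A, KPCA.B and KPCA.C. The tumor epithelial list of 9 genes summed to 362 CPM in KPCA.A, 337 in KPCA.B and 91.6 in KPCA.C, against 6337, 3917 and 3258 CPM in the tumor epithelial gate, with Cldn6 at 0 in the selected cells of all 3 tumors. The macrophage gate was chosen on C1qa, C1qb and C1qc, and the tumor epithelial gate on Cdkn2a, Krt8 and Krt18. These genes are in the lists, so the higher levels in those gates were partly fixed by their choice. At least 2 UMIs of the keratins Krt8 and Krt18 together were present in 6, 5 and 11 cells in KPCA.A, KPCA.B and KPCA.C. In KPCA.A 1 cell that also had Upk3b and Lrrn4 held 94 UMIs of these 2 keratins. The gate allowed at most 1 Cdkn2a UMI. Such a UMI was present in 8 of 24 selected cells in KPCA.A, 7 of 27 in KPCA.B and 10 of 30 in KPCA.C. Cdkn2a stood at 12.2, 9.30 and 8.17 CPM there, against 62.4, 17.7 and 55.5 CPM in the macrophage gate. Stricter exclusion asked for no Cdkn2a UMI and at most 1 UMI of Krt8 and Krt18 together. It left 10, 18 and 13 selected cells in KPCA.A, KPCA.B and KPCA.C. Pancreatic acinar genes, all 6 of them seen, summed to 895 CPM in KPCA.A, 223 in KPCA.B and 148 in KPCA.C in the selected cells. They were no lower in progenitor-type cells, at 905, 319 and 159 CPM, and in other gate cells, at 1031, 246 and 171.5 CPM. In the selected cells endothelial markers summed to at most 22.8 CPM, neutrophil markers to at most 3.27 CPM and T and NK cell markers to at most 3.27 CPM. Adipocyte markers were seen there with 1 UMI in KPCA.C. In KPCA.C, the B and plasma cell list summed to 135 CPM, and 93.1% of the UMIs of Igkc, the immunoglobulin kappa constant gene, came from 1 cell. The part of these transcripts in the differences between tumors was not tested.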

How the data were processed

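Per the file headers, the deposited counts (UMIs per gene and barcode) came from Cell Ranger, version 4.0.0 in the tumor libraries and version 3.0.2 in the ascites library, whereas the submitters' processing notes name 3.1.0 and mm10. Gene and barcode names are other values, also deposited by the authors. The labels name v2 chemistry, but the AAACCT barcode start was seen in ascites alone (5 barcodes, 0 in the tumor libraries), and AAACCC in the tumor libraries alone (9, 3 and 4 barcodes for KPCA.A, KPCA.B and KPCA.C). UMIs were summed per library and cell kind and divided by the summed depth to give CPM. Genes were measured for a ratio with at least 50 UMIs over the pair and 20 CPM in the higher sum, 5 CPM was added, and a kind needed 20 cells. Poisson, conditional and Clopper-Pearson intervals are exact. The ratio of sums and its interval were tested on simulated Poisson counts without variation between cells. The gate, thinning, shares, lists and naming of genes were not tested in this way. Members and 18 gene lists (360 genes) were chosen with earlier results of these data known; 1 library per group allowed no test, where a count test would otherwise be used. Genes were named by rule: the 12 largest ratios in each direction against progenitor-type cells and 5 in each direction for each tumor, both with at least 50 CPM and 50 UMIs, and between tumors with at least 50% of the level in the highest other gate, and the 3 highest levels and 3 largest ratios in each list; a few others (Rgs5, Higd1b, Cldn6, Igkc, Mki67, Krt8, Krt18, Wt1, Upk3b and Lrrn4) were chosen after their values were seen. Ccl19 and Aldoa, whose symbols occur more than once, were not used. Scrublet in scanpy 1.11.5 marked 15 of 8332 cells (0.180%) as doublets and so has not worked; leaving out the 186 highest scores removed 1 selected cell. Summed depths and thinning to 3000 UMIs are given in the results. Figures used matplotlib 3.10.9, and the sums and intervals used pandas 2.3.3, scipy 1.17.1 and numpy 2.4.6 under Python 3.11.15. Alternatives covered filters, limits, scaling, cell weighting, comparison kinds and, added after seeing the data, cells with Cthrc1 or Col8a1 and cells without Upk3b and Lrrn4.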

Additional observations from a re-analysis of the deposited data

Results flagged for a closer look

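The ratio of selected to progenitor-type cells ran in opposite directions in KPCA.B and KPCA.C for 5 named genes, and the difference between the libraries was not tested. Values are log2 ratios of CPM with 5 CPM added. Chil4, a chitinase-like protein gene, was at 1.17 in KPCA.B and -3.83 in KPCA.C. The other genes belong to the cell cycle list. Stmn1, a microtubule regulator, was at 1.60 in KPCA.B and -2.24 in KPCA.C, and Hmgb2, a chromatin protein, at 1.03 in KPCA.B and -1.16 in KPCA.C. Ube2c was at 2.65 in KPCA.B and -2.13 in KPCA.C, and Cenpf, a kinetochore protein, at 2.48 in KPCA.B and -3.44 in KPCA.C. At least 5 UMIs of Mki67 and Top2a together were present in 6 of 27 selected cells, against 2 of 22 progenitor-type cells, in KPCA.B, and in 1 of 30 selected cells, against 4 of 22 progenitor-type cells, in KPCA.C. In KPCA.C 1 progenitor-type cell held 541 of the 916 cell cycle UMIs of its kind (59.1%).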

How the results depend on the processing

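Of the values for single genes and lists, 6884 moved less than the counting error or kept their side of 2-fold under an alternative, 163 moved and 9 reversed; for shares and counts of genes the numbers were 77 and 21, with 0 reversed. The share of the gate was 10.2% in KPCA.A, 9.09% in KPCA.B and 15.7% in KPCA.C after thinning, 4.05% and 20.8% in KPCA.B and KPCA.C for cells with Cthrc1 or Col8a1, and 10.8% in KPCA.B without Upk3b and Lrrn4. The share of filtered cells was 0.378% in KPCA.A and 0.420% in KPCA.C with stricter exclusion of tumor cells, 0.256% in KPCA.B and 0.549% in KPCA.C after thinning, and 0.116% with Cthrc1 or Col8a1 and 0.309% without Upk3b and Lrrn4 in KPCA.B. Genes past 2-fold numbered 604 for KPCA.A over KPCA.B, 218 for KPCA.A over KPCA.C and 666 for KPCA.B over KPCA.C, against 1489, 732 and 1416 with a minimum of 10 UMIs and no CPM minimum, where more low genes were counted, and 118 for KPCA.A over KPCA.C and 429 for KPCA.B over KPCA.C with 20 CPM added. Against progenitor-type cells 62 genes passed, against 38 with a looser cell filter, 115 with a mean over cells, 179 with 10 UMIs, 38 with a progenitor limit of 2 UMIs and 26 against all other gate cells. Log2 values that reversed against all other gate cells were Flt1 at -0.31, Trf at -0.94 and Ndrg1 at -0.28 in KPCA.C and Chil4 at -1.12 in KPCA.B. With a mean over cells, Aldh1a3 reversed to 0.41 for KPCA.B over KPCA.C and Top2a to -0.57 in KPCA.B against progenitor-type cells. For KPCA.A over KPCA.C, Saa3 reversed to 0.06 with a limit of 2 UMIs, and Cxcl13 to -1.38 with a limit of 5 UMIs and -1.08 among cells with Cthrc1 or Col8a1. The cause of these changes was not tested. Thinning, stricter tumor exclusion and both added subsets left under 20 cells in a library (in KPCA.B for the subsets), so ratios could not be had there. No paired analysis was possible because each line had 1 library and no test was run.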
